A study of Mus musculus with 23 samples.

Results

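Angpt1, Angpt2, Tek and Ptprb, the 2 angiopoietin ligands, their receptor and the phosphatase that restrains it, were followed in the left lungs of 23 mice. They were taken by gene name from a NanoString mouse myeloid panel, on which they are 4 of 754 genes. Organic dust extract or PBS saline had been instilled 14 times, and bronchoalveolar lavage was done before the left lobe was removed. Fat-1 mice carry a Caenorhabditis elegans desaturase gene, driven in the original line by a widely active promoter, that makes omega-3 from omega-6 fatty acids; the wild-type (WT) mice do not carry this gene. The sources used here give neither strain nor age. By the code on each RNA extract there were 6 Fat-1 dust lungs (3 female, 3 male), 5 Fat-1 saline lungs (2 female, 3 male), 7 WT dust lungs (4 female, 3 male) and 5 WT saline lungs (2 female, 3 male). Lungs were extracted on a pair of dates, called day 2 (5 dust and 6 saline lungs) and day 1 (8 dust and 4 saline lungs).

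Angpt1 encodes a secreted ligand, made largely by pericytes and other mesenchymal cells and also carried by platelets, that activates the receptor kinase Tek, also called Tie2, on endothelial cells. Signalling through Tek keeps endothelial junctions closed and the vessel wall quiet. Angpt2 is released by endothelial cells themselves and acts on the same receptor as a weak or opposing ligand, depending on context. Ptprb, also called VE-PTP, is an endothelial tyrosine phosphatase that dephosphorylates Tek and associates with VE-cadherin, the junction protein encoded by Cdh5. The lung, with its dense capillary bed, is rich in Tek and Ptprb transcripts.

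Because the receptor gene moved together with Angpt1 and Ptprb, a RefSeq promoter window of 250 bases is shown for it. The window is GRCm38.p6 chr4:94739039-94739288, plus strand. The gene as annotated on that build starts at 94739086, inside the window, so that most of these bases are not upstream of it. Capitals mark the core GGAA of ETS factors where it lies on the other strand (TTCC on the strand printed).
Tek: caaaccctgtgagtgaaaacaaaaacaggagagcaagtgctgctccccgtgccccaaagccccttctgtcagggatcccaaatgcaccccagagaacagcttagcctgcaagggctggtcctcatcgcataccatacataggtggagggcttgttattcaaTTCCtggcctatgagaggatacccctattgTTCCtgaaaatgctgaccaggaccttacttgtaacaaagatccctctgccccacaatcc
The window held GGAA 2 times on the other strand, at -89 and -59 counted back from the base after the window, and did not hold it on the strand printed. At least 1 GGAA on either strand was found in 93.5% of 32851 RefSeq windows of this length, with a median of 3, so that these letters do not set the Tek window apart. ETS factors, among them Erg, are known regulators of endothelial genes, and the match is a description of letters. Promoter windows of Angpt1, Angpt2 and Ptprb were not used here.

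All values are normalised counts, that is probe counts multiplied by 1 factor per lung, with a floor at 20. The lungs held 110453 to 812429 recovered counts each, with factors from 0.682 to 4.21. The median was 464827 counts in dust lungs and 261858.5 in saline lungs. A median of 100 genes was at the floor in dust lungs and of 137 in saline lungs. All 4 genes were above the floor and above the highest negative control in 23 of 23 lungs. The lowest recovered count was 31 for Angpt1, at which counting error alone gives an SD of 18.0%, and the lowest was 45 for Angpt2 (14.9%), 154 for Tek (8.06%) and 262 for Ptprb (6.18%). All these lowest counts came from Fat-1 female dust lung 2 of day 1, which also stood apart on the panel: its median correlation with the other dust lungs was 0.821 over the 470 genes above the floor in every lung, against 0.897 to 0.963 for the other 12. WT female dust lung 2 of day 2 correlated more with saline lungs (median 0.975) than with dust lungs (0.897), and Fat-1 female dust lung 1 of day 2 correlated about as much with saline lungs (0.939) as with dust lungs (0.934). WT female saline lung 1 of day 2 was put in doubt by an earlier analysis of these data and correlated with the other saline lungs at a median of 0.957. The title, characteristics and code of 4 lungs named different groups. Fat-1 female saline lung 1 and Fat-1 male dust lung 1, both of day 1, are titled WT. Fat-1 male saline lung 2 of day 2 is titled WT female saline. WT male saline lung 2 of day 2 is titled WT female dust. That lung correlated with the other saline lungs at a median of 0.98 and with dust lungs at 0.843. The headers of 2 lungs carried a flow-cell saturation message.

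Dust lungs had less of all 4 transcripts than saline lungs. The question was whether repeated dust exposure goes with a change in these vessel genes. The fall was largest for Angpt1, close to equal for Tek and Ptprb, and smallest for Angpt2. In limma's fit over 711 genes, 53.3% of genes passed an adjusted p of 0.05 (Benjamini-Hochberg), 43.3% as higher and 9.99% as lower in dust. The 4 genes were all among those called lower, with a median log2 fold change of -0.91 beside a median of 0.26 over all tested genes. The latter depends on the floor: with values under 84.26 raised to that level in all lungs, it was 0.10. Then 268 genes were called higher, against 308, and 71 lower in both fits.

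Angpt1, the activating ligand, had a lowest, median and highest value of 73.3, 186 and 259 normalised counts in dust lungs, against 273, 383 and 548 in saline lungs. All 13 dust lungs lay below all 10 saline lungs. The means were 179.8 ± 70.4 in dust (SD, n = 13) and 389 ± 78.6 in saline (SD, n = 10), which is -1.21 on the log2 scale (SE 0.22, adjusted p = 0.000305), the largest fall of the 711 genes tested. Its 95% interval ran from -1.68 to -0.73. How many of the other tested genes separated the groups as fully was not counted, here or in the comparisons below.

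Angpt2, the context-dependent ligand, had a lowest, median and highest value of 106, 154 and 227 in dust lungs, against 173, 223 and 310.2 in saline lungs. The groups overlapped: 8 of 13 dust lungs lay below the lowest saline lung and 5 did not. The means were 159 ± 30.3 in dust and 231 ± 48.0 in saline, and dust minus saline was -0.56 in log2 units (SE 0.13, adjusted p = 0.00160).

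Tek, the receptor, had a lowest, median and highest value of 364, 1189.8 and 1577 in dust lungs, against 1429, 2034 and 2654 in saline lungs. Of the dust lungs, 11 of 13 lay below the lowest saline lung, and 9 of 10 saline lungs lay above the highest dust lung. The means were 1116 ± 342 in dust and 2061 ± 314 in saline, and the log2 difference was -0.96 (SE 0.20, adjusted p = 0.000638).

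Ptprb, the phosphatase, had a lowest, median and highest value of 619, 1203 and 1819.8 in dust lungs, against 1619, 1889 and 2489 in saline lungs. In 12 of 13 dust lungs it was below the lowest saline lung, the exception being WT female dust lung 2 of day 2. The means were 1121 ± 361 in dust and 1950.4 ± 259 in saline, and the log2 difference was -0.87 (SE 0.18, adjusted p = 0.000682). All 4 calls held when any 1 of the 23 lungs was left out. These are whole-lung RNA values, in which fewer endothelial or mural cells and less RNA per cell cannot be told apart.

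**Figure D1:**
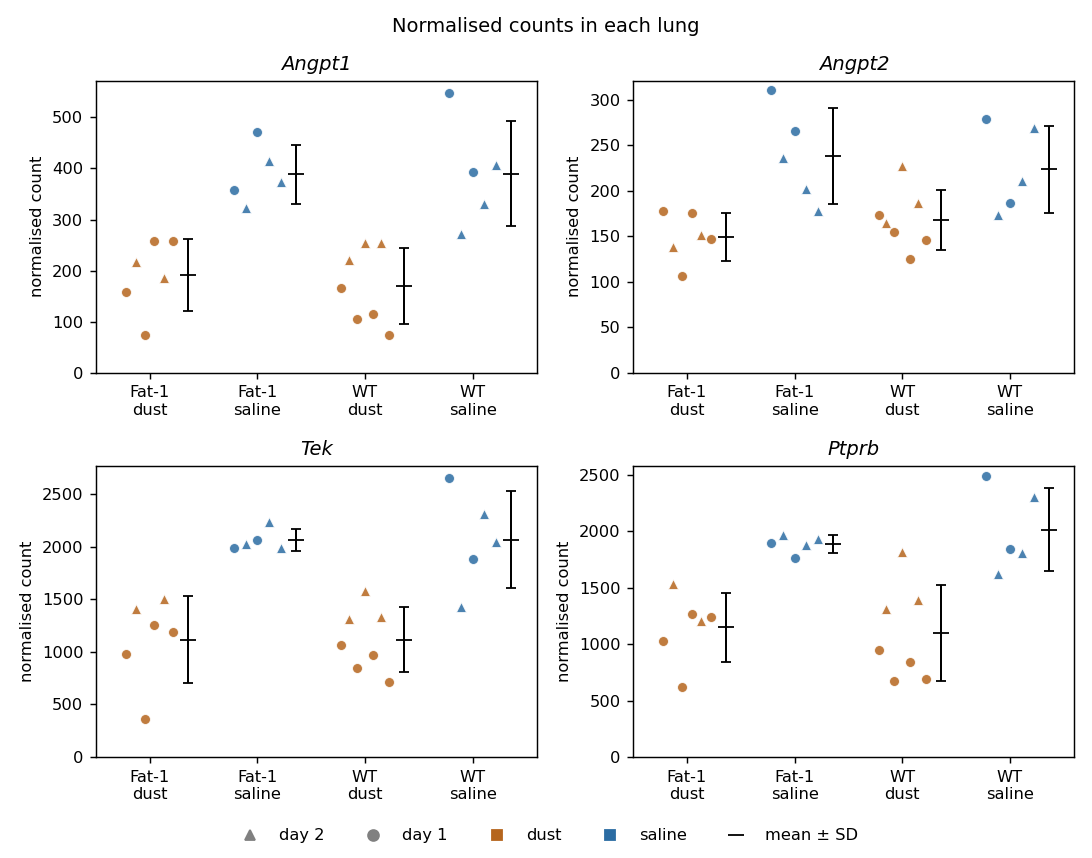
Normalised counts of Angpt1, Angpt2, Tek and Ptprb (y axes, from 0) in each of 23 lungs, in Fat-1 dust, Fat-1 saline, WT dust and WT saline groups. Triangles are day 2 and circles day 1, and bars are mean ± SD. All 13 dust lungs lie below all 10 saline lungs for Angpt1, while Angpt2 groups overlap.

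Both genotypes were then taken separately. In Fat-1 mice all 4 genes were lower in dust, with 38.1% of all tested genes called. Angpt1 read 157, 73.3, 259 and 258 in the day 1 dust lungs and 217 and 186 in the day 2 dust lungs, against 358, 472, 323, 415 and 374 in the 5 saline lungs. No Fat-1 dust lung reached the lowest Fat-1 saline lung. The log2 fold changes in Fat-1 were -1.08 for Angpt1 (SE 0.32, adjusted p = 0.0162), -0.69 for Angpt2 (SE 0.19, adjusted p = 0.00932), -1.01 for Tek (SE 0.28, adjusted p = 0.0124) and -0.77 for Ptprb (SE 0.26, adjusted p = 0.0264). For Tek and Ptprb, 6 of 6 Fat-1 dust lungs were below the lowest Fat-1 saline lung, and for Angpt2 5 of 6 were. Without the 4 lungs of conflicting labels, which leaves 1 Fat-1 female saline lung, none of the 4 genes passed in Fat-1. Far fewer genes of the whole panel passed there as well. The log2 fold changes of the 4 genes were then -1.13 to -0.70.

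In WT mice 35.3% of genes were called, among them Angpt1, Tek and Ptprb. The log2 fold changes were -1.33 for Angpt1 (SE 0.31, adjusted p = 0.00441), -0.91 for Tek (SE 0.27, adjusted p = 0.0169) and -0.96 for Ptprb (SE 0.25, adjusted p = 0.00845). Angpt2 read 124 to 227 in 7 WT dust lungs, against 279, 186, 268, 173 and 210.1 in the 5 WT saline lungs. Its log2 fold change of -0.42 (SE 0.18) did not pass (adjusted p = 0.0763). It passed with WT female saline lung 1 of day 2 left out (-0.59, adjusted p = 0.0260), and likewise with WT male dust lung 1 of day 2 (-0.50, adjusted p = 0.0398), WT female dust lung 2 of day 2 (-0.48, adjusted p = 0.0419) or Fat-1 female dust lung 2 of day 1 (-0.42, adjusted p = 0.0490) left out. It was -0.25 without WT female saline lung 1 of day 1 (adjusted p = 0.366) and -0.10 in day 2 lungs alone (adjusted p = 0.852).

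Single lungs also decided some calls within a genotype, and leaving out some of these lungs ended calls of many other genes too. Without Fat-1 female saline lung 1 of day 1, Angpt1, Angpt2 and Ptprb in Fat-1 had adjusted p of 0.0549, 0.0532 and 0.0689. Ptprb in Fat-1 also missed the threshold on leaving out Fat-1 female dust lung 2 of day 1 (-0.60, adjusted p = 0.0720) or Fat-1 female saline lung 1 of day 2 (-0.76, adjusted p = 0.0834). In WT, leaving out WT female saline lung 1 of day 1 gave -0.81 for Ptprb (adjusted p = 0.0614) and -0.69 for Tek (adjusted p = 0.120), and leaving out WT male dust lung 2 of day 1 gave -0.80 for Tek (adjusted p = 0.0503).

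The difference between the genotypes' responses was tested itself. By limma, 0 of 711 genes passed (0% called, 21 at an unadjusted p under 0.05). The difference in log2 fold change, Fat-1 minus WT, was 0.24 for Angpt1 (95% interval -0.70 to 1.19), -0.27 for Angpt2 (-0.81 to 0.27), -0.09 for Tek (-0.92 to 0.73) and 0.19 for Ptprb (-0.56 to 0.95). These intervals are wide beside the dust response itself, so that the number of lungs does not allow a statement that the genotypes respond alike. After dust, Fat-1 against WT gave 0% of genes called (22 unadjusted), with Angpt1 at 191.7 ± 70.5 in Fat-1 (n = 6) and 169.6 ± 74.3 in WT (n = 7). Within each day the mean Angpt1 levels of the genotypes stood in opposite orders: on day 2 they were 202 ± 22.3 in 2 Fat-1 dust lungs, both below the 3 WT dust lungs (243 ± 19.5; log2 difference -0.28, adjusted p = 0.492 in the fit of day 2 lungs), and on day 1 they were 187 ± 89.5 in 4 Fat-1 and 115 ± 38.1 in 4 WT dust lungs (0.59, adjusted p = 0.402), with overlap. After saline the same comparison gave 0% called (10 unadjusted), with Angpt1 at 388 ± 57.2 in Fat-1 and 390.1 ± 103 in WT (n = 5 each). That count was 15 genes with both lungs in doubt left out (WT female saline lung 1 of day 2 and Fat-1 female dust lung 2 of day 1), 22 with extraction day as a block as well and 8 with median centring as well, and none of the 4 genes was called under these settings. The log2 difference between genotypes of the other 3 genes was between -0.15 and 0.12 after either exposure.

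**Figure D2:**
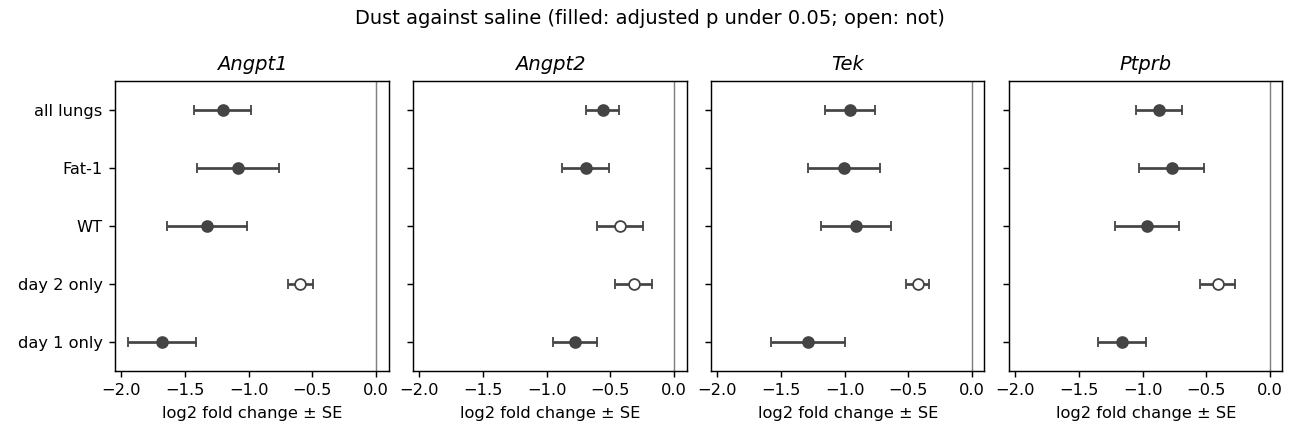
Log2 fold change ± SE of dust against saline (x axis) for each gene in all lungs, Fat-1, WT, day 2 lungs alone and day 1 lungs alone. Filled points have an adjusted p under 0.05, with all 4 genes filled for all lungs. Within a day some groups held 1 lung, so that filled and open points are not compared between the days.

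The extraction days differed in the dust lungs. Among dust lungs 6.89% of genes (49) were called between days, a count that ran from 2 without WT male dust lung 1 of day 2 to 286 without Fat-1 male dust lung 1 of day 2. The transcripts of Angpt1, Tek and Ptprb were higher on day 2, of which Ptprb passed. Ptprb had a mean of 1452 ± 238 in the 5 day 2 dust lungs and 915 ± 252 in the 8 day 1 dust lungs (log2 fold change 0.70, SE 0.19, adjusted p = 0.0365). That call was lost without any 1 of 11 lungs (each of the 7 WT dust lungs, Fat-1 female dust lung 2 of day 1, Fat-1 female dust lung 1 of day 2, WT male saline lung 2 of day 2 and Fat-1 male saline lung 2 of day 2), with values of 0.61 to 0.73 and adjusted p of 0.0504 to 0.158. Angpt1 was 226 ± 28.6 on day 2 and 151 ± 74.4 on day 1 (0.72, SE 0.25, adjusted p = 0.0771), and Tek was 1426 ± 112 on day 2 and 922 ± 285 on day 1 (0.69, SE 0.22, adjusted p = 0.0580). Angpt1 passed without Fat-1 male dust lung 1 of day 2 (1.06, adjusted p = 0.00212) or with Fat-1 female dust lung 1 of day 1 left out (0.80, adjusted p = 0.0468), and Tek passed without either of these (0.80 and 0.79) or Fat-1 male dust lung 1 of day 1 (0.72, adjusted p = 0.0481). Angpt2 was 173 ± 34.7 on day 2 and 150.5 ± 25.6 on day 1 (0.17, SE 0.17, adjusted p = 0.511).

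Among saline lungs 0.141% of genes were called between days and none of the 4 was. Angpt1 was 354 ± 55.0 in the 6 day 2 saline lungs and 443 ± 84.6 in the 4 day 1 saline lungs (-0.35, SE 0.29). The difference of the dust responses, day 2 minus day 1, was called for 0.844% of genes and for none of the 4, at 1.07 for Angpt1 (SE 0.38, adjusted p = 0.180), 0.44 for Angpt2 (adjusted p = 0.345), 0.81 for Tek (adjusted p = 0.194) and 0.75 for Ptprb (adjusted p = 0.180). Without Fat-1 male dust lung 1 of day 2, whose header carries a saturation message, the difference was 1.41 for Angpt1 (adjusted p = 0.00646) and 0.97 for Ptprb (adjusted p = 0.0136). In that fit 185 of 711 genes were called for this difference, against 6 in the fit of all lungs.

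Within day 2 alone, the log2 fold changes of dust against saline came from a fit with 3 residual degrees of freedom. They were -0.60 for Angpt1 (SE 0.10), -0.32 for Angpt2 (SE 0.14), -0.43 for Tek (SE 0.09) and -0.41 for Ptprb (SE 0.14). Within day 1 alone they were -1.68 (SE 0.27), -0.78 (SE 0.17), -1.29 (SE 0.29) and -1.16 (SE 0.19) in the same order. In these fits some groups held 1 lung, so that calls are not compared between the days. On both days all dust lungs were below all saline lungs for Angpt1 (5 against 6 on day 2, 8 against 4 on day 1). The date is that of extraction. It went largely with the hybridisation cartridge, of which one held 2 day 2 and 10 day 1 lungs and the other 9 day 2 and 2 day 1 lungs. With the cartridge as a block, day 2 minus day 1 in dust lungs was 0.996 for Angpt1 (adjusted p = 0.0273), and 108 genes were called. With so few lungs off the main pattern, day and cartridge can hardly be told apart.

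The ratio of Angpt1 to Angpt2, in which the factor of a lung cancels, was lower in dust lungs. Its absolute value depends on how well each probe captures its target, so that it is compared only between lungs. The lowest, median and highest ratios were 0.508, 1.12 and 1.76 in dust, against 1.16, 1.68 and 2.11 in saline. The groups overlapped, and the lowest saline ratio exceeded those of 7 of 13 dust lungs. The mean log2 ratio differed by -0.69 (two-sided permutation test with 100000 resamples, p = 0.00066, adjusted p = 0.00330 over 5 tests), and it stayed past the threshold without any 1 lung (-0.75 to -0.60).

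In WT the ratio was 0.508 to 1.36 in dust and 1.52 to 2.11 in saline, with no overlap of 7 and 5 lungs and a difference of -0.89 (exact permutation test, adjusted p = 0.00631). In Fat-1 it was 0.882, 0.689, 1.47 and 1.76 on day 1 and 1.57 and 1.23 on day 2 after dust, against 1.16, 1.78, 1.37, 2.06 and 2.11 after saline. That difference of -0.46 did not pass (exact permutation test, adjusted p = 0.139), and the difference between the genotypes' ratios was not tested. These tests pooled the sexes. Fat-1 males had ratios of 1.23 to 1.76 after dust (n = 3) and 1.78 to 2.11 after saline (n = 3), without overlap. Fat-1 females overlapped, at 0.689 to 1.57 after dust (n = 3) and 1.16 to 1.37 after saline (n = 2). The 4 WT dust lungs of day 1, of both sexes, had ratios of 0.508 to 0.957. The 2 Fat-1 female dust lungs of that day (0.882 and 0.689) lay within that range. Both Fat-1 male dust lungs of that day lay above it, of which lung 1 (1.47) is WT by its characteristics.

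By day, the ratio differed by -0.35 on day 2 and by -0.91 on day 1 (exact permutation tests, adjusted p = 0.0303 for each). The day 2 call was lost without WT female dust lung 2 (-0.29) or Fat-1 male dust lung 1 (-0.33), each with an adjusted exact p of 0.0595. The day 1 call was lost without Fat-1 male saline lung 1 (-0.89), WT female saline lung 1 (-0.84) or WT male saline lung 1 (-0.80), each with an adjusted exact p of 0.0758.

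**Figure D3:**
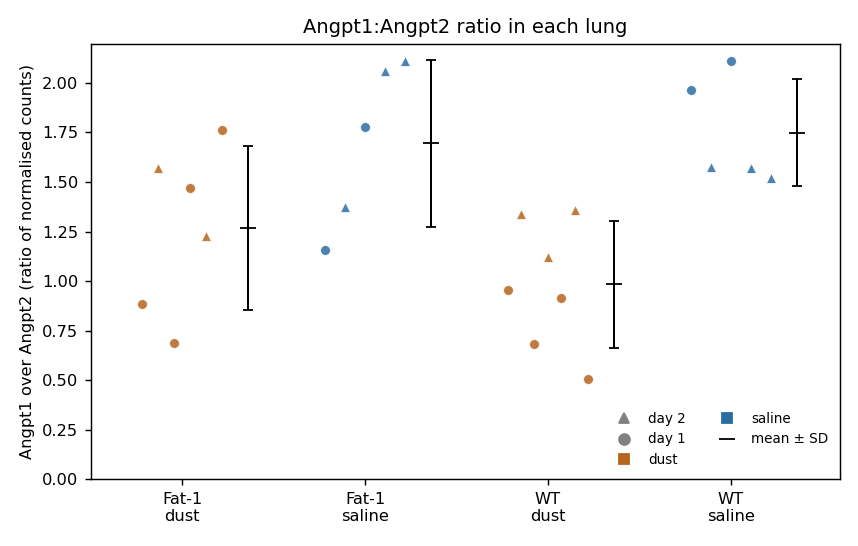
Ratio of Angpt1 to Angpt2 normalised counts (y axis, from 0) in each lung by genotype and exposure. Triangles are day 2 and circles day 1, and bars are mean ± SD. With the sexes pooled, WT dust lungs (0.508 to 1.36) lie below WT saline lungs (1.52 to 2.11), whereas Fat-1 groups overlap.

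In dust lungs, Angpt1, Tek and Ptprb varied together and Angpt2 less closely with them. After each lung's exposure mean was subtracted, the gene most like Angpt1 over 23 lungs was Ptprb (Pearson r = 0.90, 0.87 with Fat-1 female dust lung 2 of day 1 left out), followed by Tek (0.85) and Enpep (0.85), an aminopeptidase. The reverse search, from Ptprb, gave Angpt1 (0.90), Thbd (0.86), which encodes the endothelial anticoagulant receptor thrombomodulin, and Bmp6 (0.86), a growth factor. Tek was most like Enpep (0.94), Ddr2 (0.92), a collagen receptor, and Cd36 (0.90), a fatty acid transporter of capillaries and macrophages, which were 0.84, 0.83 and 0.75 without that lung. Angpt2 was most like Cdh11, Hpgd and Insig1 (each 0.62), and without it r was 0.50, 0.52 and 0.58. The order changed too on leaving that lung out: Enpep, Ddr2 and Cd36 then ranked 3, 4 and 8 for Tek, and Cdh11, Hpgd and Insig1 ranked 8, 5 and 1 for Angpt2, while the genes named for Angpt1 stayed at ranks 1 to 3 and Ptprb's Angpt1, Thbd and Bmp6 ranked 2, 3 and 7. These values share each lung's scale factor and are descriptions.

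Within the 13 dust lungs, 12 relations were computed over both exposures. Angpt1 and Ptprb had r = 0.93 and rho = 0.84 (permutation p = 3e-05 and 0.00067, adjusted 0.00012 and 0.00402), with r = 0.89 without the 2 lungs farthest from the median and r = 0.97 in the 8 day 1 lungs. Tek and Ptprb had r = 0.87 and rho = 0.91 (permutation p = 1e-05, the smallest these permutations can give, and 6e-05, adjusted 0.00012 and 0.00072), with 0.92 without 2 lungs and 0.82 on day 1. Angpt1 and Tek had r = 0.87 and rho = 0.76 (adjusted permutation p = 0.00012 and 0.0150), with 0.80 without 2 lungs and 0.83 on day 1. In the 5 day 2 dust lungs, too few for a test, r was 0.71 for Angpt1 and Ptprb, 0.48 for Tek and Ptprb and -0.09 for Angpt1 and Tek. The last relation was thus not seen within day 2, but so few lungs cannot show that it is absent. The 3 relations with Angpt2 had r = 0.65 to 0.68 (adjusted permutation p = 0.0309) but rho = 0.50 to 0.55 (adjusted permutation p = 0.144). Without 2 lungs r was 0.48 with Angpt1, 0.20 with Tek and 0.27 with Ptprb. Within days it was 0.63, 0.77 and 0.61 on day 1 and 0.76, 0.37 and 0.62 on day 2, in that order. In saline lungs Angpt1 and Tek had r = 0.73 (adjusted permutation p = 0.0342) and r = -0.12 without 2 lungs. By day it was 0.86 on day 1 (n = 4) and 0.70 on day 2 (n = 6). The lungs left out were the farthest from the median of 1 gene of the pair. Leaving them out narrows the range and can itself lower r, so that it does not settle whether these relations rest on them. Angpt1 and Ptprb (r = 0.66, adjusted permutation p = 0.0528; rho = 0.33; r = -0.04 without 2 lungs) and Tek and Ptprb (r = 0.68, adjusted permutation p = 0.0527; rho = 0.33; r = -0.18 without 2 lungs) did not pass in saline lungs.

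**Figure D4:**
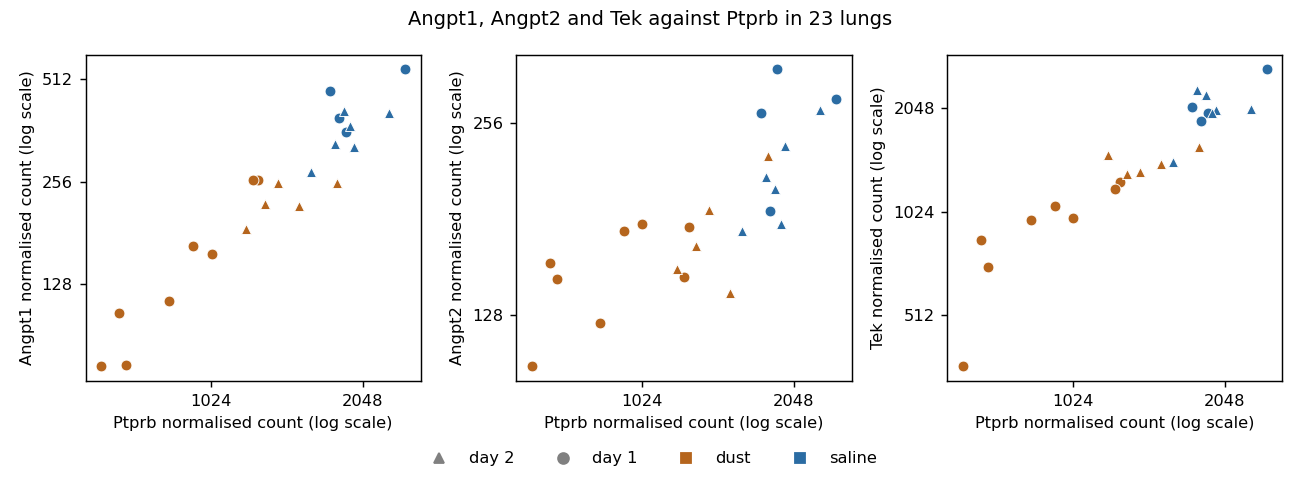
Normalised counts of Angpt1, Angpt2 and Tek (y axes) against Ptprb (x axes), log scales, in 23 lungs. Triangles are day 2 and circles day 1, orange is dust and blue saline. Angpt1 and Tek follow Ptprb over the dust lungs, with r = 0.93 and 0.87 on the log2 scale, and Angpt2 does so less closely.

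Other genes of the same signalling and of vessels were read from lists. Of 26 genes listed for the Tie receptor pathway, 4 were on the panel. Klf4, a transcription factor of quiescent endothelium (-0.62, adjusted p = 0.00800), and Vegfa, the vascular growth factor (-0.77, adjusted p = 0.0108), were lower in dust. Itga5, an integrin subunit that also occurs on leukocytes, was higher (1.33, adjusted p = 0.00106). It was at the floor in 2 saline lungs and in no dust lung. Itgb1 was at -0.05 (adjusted p = 0.799). Of 34 endothelial genes 10 were on the panel, and 9 were lower and 0 higher in dust, beside 9.99% of all tested genes called lower, with a median log2 fold change of -0.61. Cdh5 fell to 1070 ± 200.4 in dust, against 1572 ± 196 in saline (-0.58, adjusted p = 0.000284), and Cav1, of caveolae (-0.64, adjusted p = 0.000638), Cdh13, an adiponectin receptor (-0.95, adjusted p = 0.00146), and Erg (-0.48, adjusted p = 0.00148) were lower as well. With Fat-1 female dust lung 2 of day 1 and WT female saline lung 1 of day 2 left out, 7 of the 10 endothelial genes were called lower, and without the 4 lungs of conflicting labels 5 were. The median log2 fold change of the 10 was -0.38 in day 2 lungs alone and -0.81 in day 1 lungs alone. Within a day some groups held 1 lung, so that only these effect sizes are given here.

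Of 5 genes of an activated endothelium on the panel, 2 rose and 0 fell, a share close to the 43.3% of all genes called higher. They were Vcam1, a leukocyte adhesion molecule (159 ± 28.9 in dust, 118 ± 22.1 in saline, 0.44, adjusted p = 0.00627), and Selp, P-selectin of endothelium and platelets (125 ± 75.1 in dust, 55.6 ± 19.9 in saline, 1.00, adjusted p = 0.0102). Icam1 (0.30, adjusted p = 0.0517) and Sele (0.40, adjusted p = 0.201) did not pass. Selp was at the floor in 1 saline lung, and Sele in 3 saline lungs and 1 dust lung. Without the 4 lungs of conflicting labels Selp alone was called. With lungs centred on their median, 0 of the 5 were higher and 1 was lower, while Angpt1, Angpt2, Tek and Ptprb were all called lower. On that scale 243 of 711 genes were called lower and 202 higher, against 71 and 308 in the main fit. Of the VEGF genes, Flt1, a receptor (-0.46, adjusted p = 0.0365), was lower beside Vegfa, and Vegfc was at -0.09. Flt1 was not called without the 2 lungs in doubt, and neither Flt1 nor Vegfa was without the 4 lungs of conflicting labels. Of mural cell genes, Des, the muscle filament desmin, was lower (-0.43, adjusted p = 0.0145), and Pdgfrb, the pericyte receptor, was at -0.21 (adjusted p = 0.09998). Without the 2 lungs in doubt Pdgfrb was called lower and Des was not, and without the 4 lungs of conflicting labels neither was.

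Markers of other cell types were read in the same lungs, beside the 43.3% of all genes called higher. All 3 leukocyte genes on the panel were higher in dust, and their summed level was 1429 to 5792 in dust lungs and 1038 to 1575 in saline lungs. Of 9 tested neutrophil genes 6 were higher, with summed levels of 2161 to 43129 in dust and 1871 to 3833 in saline and Elane at the floor in all lungs, and of 11 macrophage genes 9 were higher (13525 to 46378 in dust, 8285 to 22595 in saline). Of 3 platelet genes Pf4 and Selp were higher (283 to 1099 in dust, 219 to 341 in saline), and of 5 fibroblast genes 3 were higher (8498 to 22122 in dust, 5771 to 10209 in saline). Of 2 epithelial genes Lamp3 of alveolar type II cells was higher (summed with Cdh1, 8120 to 12950 in dust, 7049 to 11532 in saline), and the 1 lymphocyte gene, Ms4a1, was at -0.01. Lamp3 was not called on the housekeeping scale, with median centring (where Cdh1 was called lower), without the 4 lungs of conflicting labels or on either day alone. The part of these cells in the lower values of Angpt1, Angpt2, Tek and Ptprb was not tested.

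Setting each gene against Cdh5 in the same lung, a measure chosen after the values were seen and given without a test, removes the lung's factor. The ratio of Angpt1 to Cdh5 was 0.168 ± 0.065 in dust and 0.247 ± 0.036 in saline, and the lowest saline ratio exceeded that of 9 of 13 dust lungs. That of Angpt2 was 0.151 ± 0.026 in dust and 0.148 ± 0.031 in saline, and 1 dust lung of 13 had a ratio under the saline minimum. For Tek it was 1.03 ± 0.26 in dust and 1.31 ± 0.15 in saline, and for Ptprb 1.04 ± 0.27 in dust and 1.24 ± 0.09 in saline. The groups overlapped for both: 5 of 13 dust lungs lay below the lowest saline ratio of Tek, and 8 below the lowest and 2 above the highest of Ptprb. On day 2 the Tek ratio was 1.20 ± 0.17 in dust and 1.32 ± 0.19 in saline and that of Ptprb 1.22 ± 0.26 in dust and 1.26 ± 0.10 in saline. On day 1 they were 0.935 ± 0.26 in dust and 1.30 ± 0.11 in saline for Tek, and 0.931 ± 0.22 in dust and 1.21 ± 0.046 in saline for Ptprb. Within WT the Angpt2 ratio was 0.158 ± 0.026 in dust and 0.136 ± 0.019 in saline, and within Fat-1 0.142 ± 0.026 in dust and 0.159 ± 0.039 in saline. The ratio of Tek to Ptprb was 1.00 ± 0.17 in dust and 1.06 ± 0.13 in saline.

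**Figure D5:**
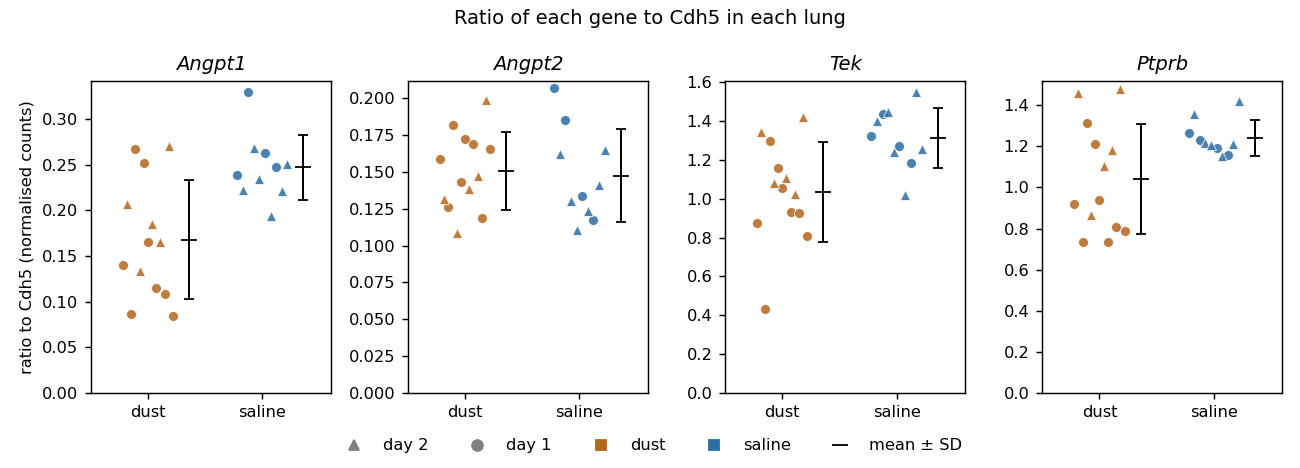
Ratio of each gene's normalised count to that of Cdh5 (y axes, from 0) in each dust and saline lung. Triangles are day 2 and circles day 1, and bars are mean ± SD. The Angpt1 ratio is lower in dust (0.168 against 0.247), and the Angpt2 ratios overlap throughout.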

How the data were processed

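Total RNA of 23 left lungs was counted on a NanoString nCounter mouse myeloid panel without amplification. The deposited values are a signal: normalised counts per gene, which the authors had multiplied by a factor per lung and floored at 20, as read from the values. How the factor was computed is not given in the sources read. Values over the floor were whole multiples of the lung's factor within 0.1 steps (100.0%), but counts under the floor are hidden, so no count model was used. Of 754 genes, 43 were at the floor in all lungs and 711 were tested. Tests used limma 3.58.1 (R 4.3.3) on log2(value + 1), two-sided, in a model of 8 groups of genotype, sex and exposure, with day terms within exposure added for the day contrasts and Benjamini-Hochberg adjustment over all tested genes. The ratio was tested by permutation with scipy 1.17.1. Python 3.11.15, numpy 2.4.6, pandas 2.3.3 and matplotlib 3.10.9 made tables and plots. Groups follow the code of each extract, made up per the labels' protocols of date, genotype, sex, exposure and replicate; 19 lungs' labels agreed and 4 did not. Each lung is 1 mouse. The members, lists and tests were chosen with earlier results of these data known. Named were the 4 genes in every comparison, up to 4 genes per vessel list by smallest p, and per member the 3 genes of most similar pattern. Alternatives covered scaling, floor, filter, pseudocount, blocks, weights, days, labels and lungs left out.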

Additional observations from a re-analysis of the deposited data

How the results depend on the processing

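Dust against saline over all lungs kept its direction for Angpt1, Angpt2, Tek and Ptprb under 20 alternatives and with each lung left out. All 4 calls were lost only with day 2 lungs alone (-0.60, -0.32, -0.43 and -0.41, where 1 gene was called, against 379 in the fit of all lungs). Leaving out each lung gave -1.33 to -1.08 for Angpt1, -0.64 to -0.47 for Angpt2, -1.07 to -0.82 for Tek and -0.95 to -0.78 for Ptprb, with 336 to 402 genes called. Median centring turned the split of 308 higher and 71 lower genes to 202 higher and 243 lower, and moved the median of all genes to -0.13, against 0.26. The housekeeping scale gave 250 higher and 117 lower. The median of the 4 genes was -1.30 with median centring and -1.07 with the housekeeping scale.

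Replicate numbers are counted within a group and day and do not pair lungs. Lungs of the same day and number had deviations correlated at a median of -0.01 over 65 pairs, with 24 over 0.1, and those of the same day with another number at 0.002. With the replicate block, Angpt1 and Ptprb in Fat-1 lost their calls (-0.79 and -0.50). In that setting 160 genes were called in Fat-1, against 271, and 277 over all lungs, against 379. With extraction day as the block no call of the 4 genes in dust against saline changed.

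In Fat-1, day 2 alone ended the calls of Angpt1 (-0.82), Angpt2 (-0.54), Tek (-0.51) and Ptprb (-0.51), along with most calls of the panel. Day 1 alone ended the calls of Angpt1 (-1.30), Tek (-1.24) and Ptprb (-0.87). Without the 4 lungs of conflicting labels all 4 genes lost theirs (-1.13, -0.70, -1.02 and -0.78), as did most other called genes. Groups from the characteristics ended the calls of Angpt1 (-1.13) and Ptprb (-0.78). Ptprb also lost it without the 2 lungs in doubt (-0.60) and without the 2 lungs with a saturation message (-0.76). In WT, day 2 alone ended the calls of Angpt1 (-0.37), Tek (-0.35) and Ptprb (-0.31), along with most calls of the panel. Tek also lost its call in WT with day 1 alone (-1.33) and without the lungs of conflicting labels (-0.92). Angpt2 in WT gained a call with the housekeeping scale (-0.60), median centring (-0.81), array weights (-0.56), without the 2 lungs in doubt (-0.59, also with day as a block, and -0.997 with median centring) and without WT female dust lung 2 of day 2 (-0.48). Leaving out each lung gave, in Fat-1, -1.25 to -0.86 for Angpt1, -0.79 to -0.60 for Angpt2, -1.21 to -0.72 for Tek and -0.93 to -0.60 for Ptprb, and in WT, -1.58 to -1.08, -0.59 to -0.25, -1.14 to -0.69 and -1.12 to -0.81.

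Between days in dust lungs, Angpt1 gained a call with the hybridisation cartridge as a block (0.996), array weights (0.94) and without the lungs with a saturation message (1.06), and leaving out each lung gave 0.51 to 1.06. Tek gained one with the housekeeping scale (0.76), median centring (0.88, or 0.72 also without the lungs in doubt), genes above the floor in every lung (0.69), groups without sex (0.71), array weights (0.58), without the lungs in doubt (0.53) and without those with a saturation message (0.80), with 0.53 to 0.80 on leaving out each lung. Ptprb lost its call without the lungs of conflicting labels (0.75), with groups from the characteristics (0.69) and without WT female dust lung 2 of day 2 (0.61), with 0.61 to 0.92 on leaving out each lung. The difference of the dust responses between days gained calls for Angpt1 and Ptprb with array weights (1.16 and 0.69) and without the lungs with a saturation message (1.40 and 0.94). Under these settings 170 and 158 of 711 genes were called for that difference, against 6. Leaving out each lung gave 0.86 to 1.41 for Angpt1 and 0.59 to 0.97 for Ptprb. Genes called between days in dust lungs numbered 6 to 335 under the other alternatives and 2 to 286 on leaving out each lung, against 49. The ratio on day 2 lost its call without WT female dust lung 2 (-0.29) and without the lungs with a saturation message (-0.35), with -0.42 to -0.29 on leaving out each lung, and the ratio on day 1 ran from -1.09 to -0.78. No result reversed while called. The causes were not tested. The 3 alternatives on saturation messages and on pairs of choices were added after seeing the data, and the planned count-model test was not run, because counts under the floor are hidden.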
